A study of Mus musculus with 12 samples.

Results

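The cells described here were the monohormonal *Sst* cells of the mouse islet, the δ-cells, of which 276 were found among 5982 cells in 4 single-cell RNA-seq libraries. They were taken from the 2 YFP- libraries, 135 of 1495 cells in experiment 1 and 141 of 1689 cells in experiment 2. Members were chosen by hormone UMIs: a cell was taken when *Sst* made more than 26.7 of every 10000 of its UMIs (unique molecular identifiers, each standing for 1 captured transcript), *Ppy* at most 24.3, *Gcg* at most 166 and *Ins2* at most 577. Cells with more than 19.1 UMIs per 10000 of *Cd74*, *Col3a1* or *Plvap*, genes of immune, stromal and endothelial cells, were left out. The members were thus selected on these 7 genes, whose values are given only as a description.

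Islets of Langerhans hold several endocrine cell types, each named by the peptide hormone it secretes: insulin in β-cells, glucagon in α-cells, pancreatic polypeptide (*Ppy*) in γ-cells and somatostatin (*Sst*) in δ-cells. Somatostatin acts over short distances on neighbouring cells and restrains the release of insulin and glucagon through inhibitory G protein-coupled receptors. δ-cells are few, carry long processes, and depend on the homeodomain transcription factor Hhex to keep their identity.

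The study asked how γ-cells and their neighbours relate to each other in transcriptome. Single cells came from 2-month-old mice of mixed background carrying Ppy-rtTA and R26-YFP, given doxycycline at 1 mg/ml in the drinking water 1 month before the cells were taken so that cells with an active *Ppy* locus became labelled with YFP, and sorted islet cells of several pooled mice were loaded as one YFP+ and one YFP- library in each of 2 experiments. The labels name only these 2 transgenes, while the study calls the mice Ppy-YFPi, which it defines as carrying TetO-Cre as well. In the study the Ppy-rtTA transgene replaces 1 *Ppy* allele, so all single-cell groups, δ-cells included, come from mice with a single intact copy. Bulk RNA-seq was made from YFP+ cells of Sst-Cre;R26-YFP mice (3 libraries, called bulk δ) and of Ppy-rtTA;TetO-Cre;R26-YFP mice (5 libraries, called bulk γ), also 2 months old and of mixed background. The bulk labels speak of doxycycline-treated mice, and whether this covers the Sst-Cre animals is not settled by their wording. The *Sst* promoter drives Cre in the bulk δ mice, so bulk δ samples can also hold cells that contain both *Ppy* and *Sst*. The δ-cells were compared with α-cells (*Gcg* only, 326 and 345 cells in experiments 1 and 2) and β-cells (*Ins2* only, 437 and 92 cells) of the same libraries, with γ-cells (*Ppy* only, 721 and 828 cells) of the YFP+ libraries, and with cells positive for both *Ppy* and *Sst* in the YFP- libraries (Ppy+Sst+, 78 and 59 cells).

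δ-cells made 9.03% of YFP- cells in experiment 1 (exact 95% binomial interval 7.63 to 10.6) and 8.35% in experiment 2 (7.07 to 9.77). The intervals cover counting error only. Of all YFP- cells, 264 and 322 passed the *Sst* threshold. In experiments 1 and 2, 78 and 59 of these also passed the *Ppy* threshold, 1 and 21 were non-endocrine, and 50 and 101 were over the limit for *Gcg* or *Ins2*. The median δ-cell held 4130 UMIs (1577 to 9132) in experiment 1 and 2942 UMIs (1024 to 13094) in experiment 2, from 1385 and 1173 genes. α-cells were deeper, with medians of 7866 and 6360 UMIs, and β-cells deeper still, with 23832 and 12529 UMIs. Of the barcodes, 21 were shared by any 2 libraries, among them 2 of δ-cells.

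*Sst* took a median of 19.8% of the UMIs of a member in experiment 1 (0.417 to 51.5) and 12.7% in experiment 2 (0.304 to 29.96). In experiment 1 the members nearest the threshold had 41.7 and 999 *Sst* UMIs per 10000, and the nearest cells outside it had 21.6 and 18.8. In experiment 2 the nearest members had 30.4, 33.0 and 36.3, and the nearest cells outside 24.4 and 20.3. Nearly all members therefore lay far above the *Sst* threshold. The *Ppy* limit fell within a continuous range: the members closest to it had 24.2 and 23.8 *Ppy* UMIs per 10000 in experiments 1 and 2, and the closest cells beyond it had 26.4 and 25.4. No *Ppy* UMI at all was found in 55 members (40.7%) of experiment 1 and 44 (31.2%) of experiment 2. A *Sst* UMI was also found in 73.2% and 79.96% of the non-endocrine YFP- cells, so a single UMI was no sign of expression.

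**Figure D1:**
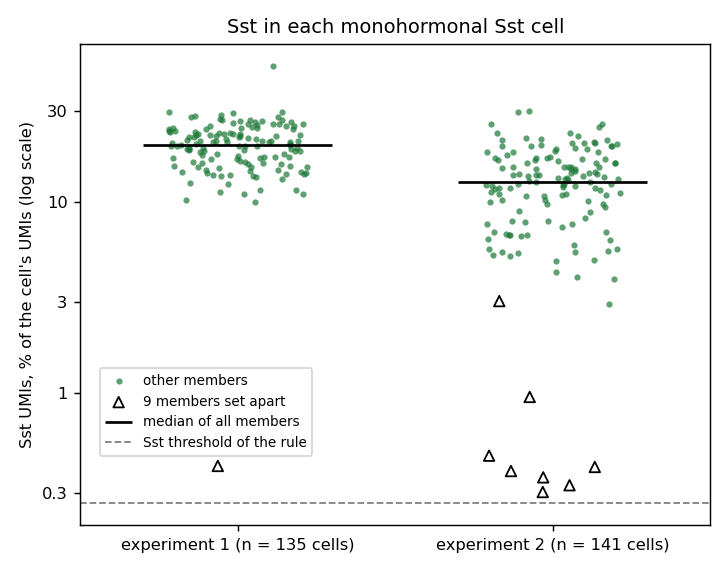
Share of each δ-cell's UMIs taken by *Sst* (percent, log axis) in experiment 1 (135 cells) and experiment 2 (141 cells), where the line is the median and the dashed line the threshold of 0.267%. Triangles mark the 9 members set apart, 8 for low *Sst* and 1 for immunoglobulin RNA, and the medians over all members are 19.8% and 12.7%.

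*Sst* is the defining hormone gene of these cells. It lies on the minus strand of chromosome 16 (23889573 to 23891342, GRCm38.p6). RefSeq holds 2 transcripts of it on this build, and the promoter window searched is the 250 bases before the start site at 23890844, which lies inside the longer transcript's span. The 30 bases around the motif are shown because they hold the cyclic AMP response element (CRE) by which CREB-family factors are known to act on this gene. The capitals mark TGACGTCA, a sequence that reads the same on both strands, and it begins 48 bases before the start site.
Sst promoter, chr16:23890874-23890903, minus strand: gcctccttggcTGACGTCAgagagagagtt
This element was found in the same window of 1.77% of all genes with a promoter in the table (478 of 27025). A match describes the letters of the window, not a bound site.

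Summed over its members, the δ-cell class held 576617 UMIs in experiment 1 and 438022 in experiment 2. *Sst* made 20.9% and 13.5% of them. *Ppy* made 0.0394% and 0.0589%, *Gcg* 0.179% and 0.486%, and *Ins2* 1.12% and 0.433%. After *Sst* and the nuclear noncoding RNA *Malat1*, the most abundant transcripts were those of 2 further peptide hormones: *Pyy* (peptide YY) with 4.01% and 3.16% of UMIs, and *Iapp* (islet amyloid polypeptide) with 3.67% and 3.20%. Both stood above the non-endocrine YFP- cells, where *Pyy* made 0.0310% and 0.228% and *Iapp* 0.0525% and 0.169%. *Pcsk2*, the convertase of prohormones, stood at 4554 and 4596 CPM (counts per 1e6). YFP and rtTA transcripts were nearly missing, at 1 UMI of each in each experiment.

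A small number of members stood apart. One cell of experiment 1 and 7 of experiment 2 had *Sst* at 30.4 to 95.6 UMIs per 10000, while the lowest *Sst* among the members not set apart was 999 in experiment 1 and 294 in experiment 2. Acinar (digestive enzyme) genes made 46.3% of the UMIs of the cell of experiment 1, and 34.4% and 33.5% in 2 cells of experiment 2. Goblet cell genes made 23.2% of another. The deepest member, with 13094 UMIs and *Sst* at 303 per 10000, was set apart as well, with 35.02% of its UMIs in immunoglobulin genes. In the remaining low-*Sst* cells of experiment 2, acinar, goblet and immunoglobulin genes each made at most 0.165% of UMIs. Among the members without these 9, 97.8% (131 of 134) and 95.5% (127 of 133) held at least 2 of the 4 other δ-cell markers. Of these markers, the cell set apart in experiment 1 held 1. Those set apart in experiment 2 held 0, 1, 0, 0, 0, 2, 0 and 4, from low to high *Sst*. The 9 were kept, since the rule includes them, and every test was repeated on the 267 members without them. The repeat was added once these cells had been noticed. Without them the *Igkc* level of experiment 2 went from 6545 to 412 CPM, that of *Cpb1* from 945 to 7.36, and that of *Clps* from 1995 to 169.

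The label was checked on 4 δ-cell markers that took no part in the rule, although they had been listed with earlier results of these data known. *Hhex* encodes the δ-cell homeodomain factor, *Rbp4* the retinol carrier of plasma, *Cd24a* a glycoprotein anchored to the cell surface by lipid, and *Ly6h* a surface protein of the Ly6 family. A UMI of *Hhex* was found in 51.9% and 48.2% of members, against 0.307% and 2.90% of α-cells, 0.229% and 1.09% of β-cells and 4.33% and 6.50% of non-endocrine YFP- cells. *Ly6h* was found in 66.7% and 53.2% of members, and among non-endocrine cells only in experiment 2, in 1.99%. The non-endocrine YFP- cells had median depths of 4659 and 3036 UMIs, close to those of δ-cells. *Cd24a* was found in 92.6% and 83.0%, but also in 43.3% and 36.6% of non-endocrine cells, against 2.45% and 4.64% of α-cells, 2.97% and 8.70% of β-cells and 0.555% and 1.45% of γ-cells. *Rbp4* was found in 99.3% and 93.6% of δ-cells, 98.2% and 96.2% of α-cells and 31.8% and 37.0% of β-cells. It was also found in 84.9% and 74.4% of γ-cells and 9.09% and 17.3% of non-endocrine YFP- cells. Cells differed in depth, and with each cell thinned to 1000 UMIs *Hhex* was found in 14.8% and 21.3% of δ-cells and *Rbp4* in 94.8% and 85.8%, against 54.0% and 55.1% of α-cells for *Rbp4*. At least 2 of the 4 markers were found in 97.0% and 91.5% of members, 2.45% and 6.96% of α-cells, 1.60% and 6.52% of β-cells and 1.11% and 2.54% of γ-cells. Among non-endocrine YFP- cells 5.63% and 13.4% held at least 2, and among YFP- Ppy+Sst+ cells 100% and 91.5%. The label of δ-cells fitted these markers, which Ppy+Sst+ cells shared.

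Levels of these markers were compared on the summed UMIs of each class and experiment, in CPM normalised by the trimmed mean of M-values (normalised CPM, meant wherever plain CPM is not named). Fold changes are log2 (logFC ± SE) with positive values for higher in δ-cells. They came from edgeR's quasi-likelihood test with the experiment as a block, and each class had 2 sums. Here and in bulk, each SE was derived from the test, as the size of the logFC over the square root of the F statistic. Calls needed a Benjamini-Hochberg adjusted p no larger than 0.05 together with a logFC beyond 0.721 in either direction. *Hhex* (chromosome 19, 37434841 to 37440731) stood at 147 and 170.3 CPM in δ-cells of experiments 1 and 2, 0.347 and 5.54 in α-cells, 0.208 and 1.35 in β-cells and 1.82 and 2.79 in γ-cells. The δ-cell values did not overlap those of any other class, with logFC 5.72 ± 0.37 and 6.07 ± 0.35 against α- and γ-cells. β-cells held only 2 UMIs of it, and the ratio to them was 438-fold (119.7 to 3635), where the range is the 95% counting interval, as for all ratios below that rest on 1 to 3 UMIs. *Ly6h* (chromosome 15, 75564745 to 75569470) stood at 280.0 and 241 CPM, with 366 UMIs in δ-cells and 3, 6 and 9 in the α-, β- and γ-cells. Its ratio to α-cells was 503-fold, with a counting interval of 171 to 2453. *Cd24a* (chromosome 10, 43579169 to 43584265) stood at 543 and 578 CPM and was higher by 6.29 ± 0.27, 6.75 ± 0.30 and 7.66 ± 0.29. *Rbp4* (chromosome 19, 38116620 to 38125321) was the most abundant of the 4, at 3574 and 2637 CPM against 865 and 818 in α-cells, 69.3 and 221 in β-cells and 470.3 and 462 in γ-cells. Its logFC of 1.88 ± 0.33, 4.53 ± 0.39 and 2.73 ± 0.34 were the smallest of the 4 markers. All 12 of these comparisons were called, and all were also called without the 9 members.

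**Figure D2:**
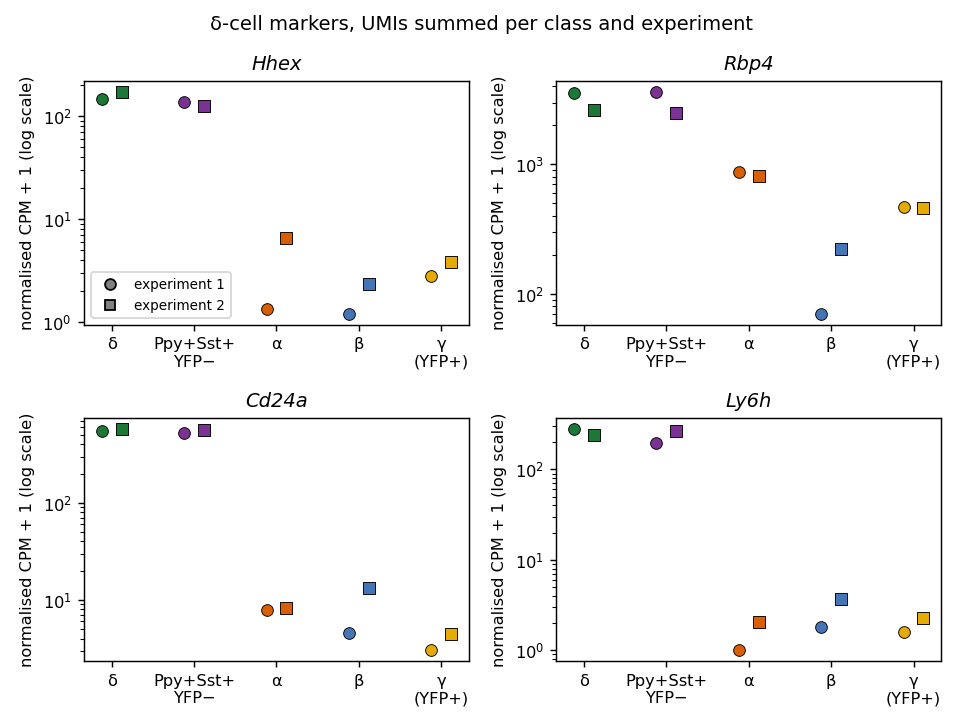
Levels of *Hhex*, *Rbp4*, *Cd24a* and *Ly6h* (normalised CPM + 1, log axis) in the summed cells of each class, with circles for experiment 1 and squares for experiment 2. δ-cells and Ppy+Sst+ cells lie together above the α-, β- and γ-cells, while *Rbp4* has UMIs in all classes. In β-cells its plain level (32.3 and 128 CPM) was near that of non-endocrine YFP- cells (16.2 and 185).

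Across 9481 tested genes, 640 were higher in δ-cells than in α-cells (6.75%) and 493 were lower (5.2%). Against β-cells 716 were higher (7.55%) and 723 lower (7.63%), and against γ-cells 621 were higher (6.55%) and 423 lower (4.46%). The hormone takes a larger share of RNA in some classes than in others, so the normalised scale and plain CPM differ: equal plain CPM corresponded to a logFC of -0.413 against α-cells, -1.41 against β-cells and -0.784 against γ-cells, and a negative logFC smaller in size than this turns positive in plain CPM. Among the list genes below, this concerned among others *Pcsk2*, *Cpe*, *Nucb2*, *Scg3*, *Syt4*, *Syp*, *Sv2a*, *Rab3d*, *Neurod1*, *Cacna1d*, *Gipr* and *Pdx1* against β-cells and *Snap25* against γ-cells, all called lower although their mean plain CPM was higher in δ-cells. With every cell thinned to 1000 UMIs, 356, 259 and 273 genes were called against α-, β- and γ-cells. γ-cells came from the other sorted fraction, so cell type and fraction cannot be told apart in this comparison. When each library was its own block, 112 genes were called against γ-cells. Of the compared classes only Ppy+Sst+ cells were summed in both fractions, so this fit takes them as alike in both. Yet *Sst* made 19.01% and 13.94% of their UMIs in YFP- libraries and 8.29% and 4.70% in YFP+ libraries (experiments 1 and 2). No conclusion was drawn from calls with libraries as block.

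The 3 comparisons share the δ-cell sums, so what they have in common is a description. Higher against all 3 were 224 genes (2.36% of those tested), of which 203 stayed without the 9 members. The count was 137 with no replicate block, 72 with libraries as block and 46 with cells thinned to 1000 UMIs, where fewer genes were tested. The genes named below came from the 20 that had at least 50 plain CPM in δ-cells of each experiment, levels that did not overlap those of the other types, and the largest values for the smallest logFC of the 3. Besides *Hhex*, they held the transcription factor genes *Neurog3*, *Mef2c* and *Ehf*. *Neurog3*, known for starting the endocrine programme in pancreatic progenitors, stood at 80.6 and 51.6 CPM in δ-cells (94 UMIs), and no UMI was found in α-cells. It was at least 129-fold higher than in α-cells, taking 3 UMIs over the class as the floor, and higher by 4.04 ± 0.31 than in β-cells and 4.98 ± 0.32 than in γ-cells. *Mef2c*, a MADS-box factor of muscle and neurons, stood at 210.0 and 142 CPM and differed by 6.62 ± 0.36, 4.33 ± 0.30 and 6.53 ± 0.32. In plain CPM *Mef2c* stood at 276 and 208 in δ-cells and at 228 and 308 in non-endocrine YFP- cells. *Ehf*, an ETS factor of epithelia, stood at 83.2 and 114 CPM and differed most from β-cells (6.95 ± 0.39).

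*Ptprz1*, a receptor tyrosine phosphatase, stood at 58.1 and 74.99 CPM, 0.695 and 0.346 in α-cells and 0 and 2.71 in β-cells, and no UMI was found in γ-cells, so that it was at least 211-fold higher than in γ-cells. *Gap43*, a protein of growth cones, stood at 310.4 and 170.3 CPM with logFC 8.30 ± 0.40, 7.41 ± 0.39 and 5.89 ± 0.29. *Dpp6*, an auxiliary subunit of A-type potassium channels, stood at 118 and 112 CPM and was higher by nearly the same amount against each type (5.18 ± 0.25, 5.10 ± 0.26 and 5.23 ± 0.23). *Efna5*, a membrane-bound ephrin ligand, stood at 60.8 and 57.8 CPM with logFC 3.12 ± 0.28, 3.18 ± 0.29 and 3.41 ± 0.27. *Nnat* (neuronatin, from an imprinted gene) stood at 43.6 and 85.9 CPM and *Cfap61*, a gene of motile cilia, at 70.0 and 71.9 CPM. *Fam159b* reached 680.2 and 748 CPM, *Car8*, a carbonic anhydrase relative without that activity, 89.8 and 93.7 CPM, and *Fabp5*, a fatty acid-binding protein, 108 and 112 CPM. Plain levels of *Fabp5* were 142 and 164 CPM in δ-cells and 157 and 62.5 in non-endocrine YFP- cells.

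The remaining named genes encode pancreatic digestive enzymes, and most rested on the 9 members set apart. *Cpb1* (carboxypeptidase B) stood at 264 and 647 CPM, *Pnlip* (pancreatic lipase) at 285 and 742 CPM and *Pnliprp2* (a lipase relative) at 44.9 and 59.4 CPM. None of these 3 was called against any of the 3 types once the 9 members were left out. *Cela1* (an elastase), at 289 and 653 CPM, then lost its calls against α- and β-cells.

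**Figure D3:**
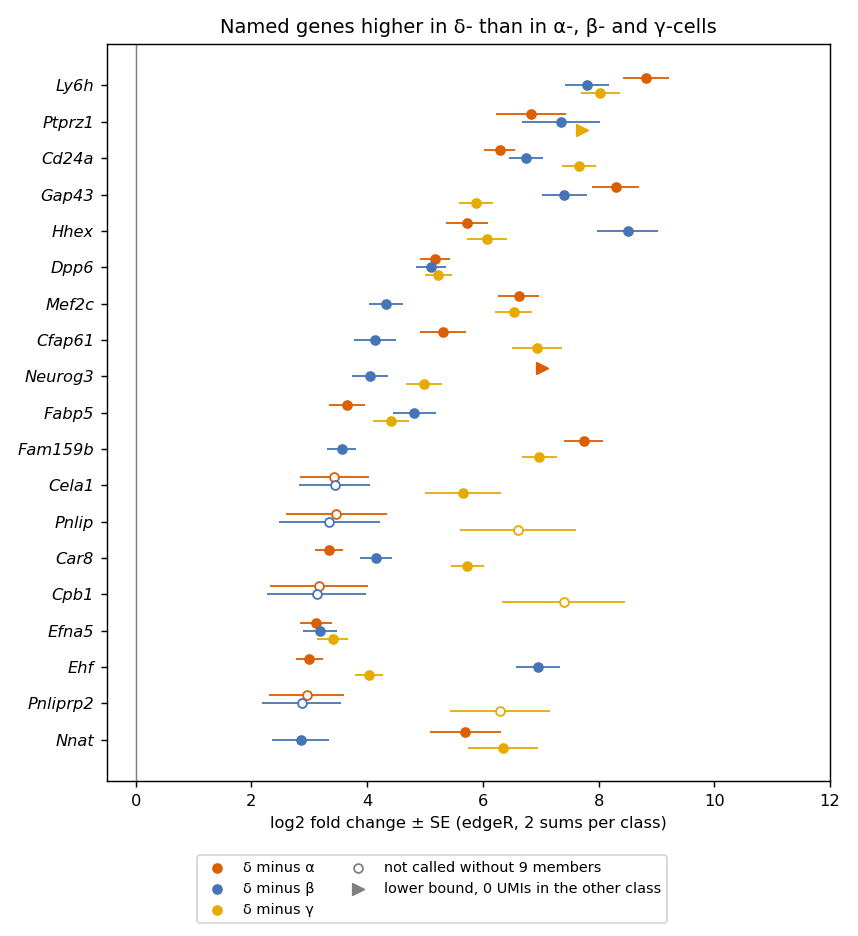
logFC ± SE (log2, edgeR, 2 sums per class) of the named genes in δ-cells against α-, β- and γ-cells. Arrowheads are lower bounds, without counting error, for genes with 0 UMIs in the other class. Open symbols are comparisons not called without the 9 members. *Ly6h* has the highest smallest difference, and open symbols are found for *Cela1*, *Pnlip*, *Cpb1* and *Pnliprp2*.

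The bulk libraries gave a second set of animals for the comparison with γ-cells. Bulk δ libraries were read single-end and bulk γ libraries paired-end, on different HiSeq models, so cell type and platform cannot be told apart, nor can fewer cells of a type and less RNA per cell. Bulk δ libraries held 7641916, 11773598 and 10627602 reads in genes, and bulk γ libraries 31784878, 20953310, 21792130, 22040260 and 14633838. *Sst* stood at 69804, 87128 and 101118 CPM in bulk δ and 7119, 8281, 8767, 9136 and 11511 in bulk γ. *Ppy* stood at 10889, 16501 and 12141 in bulk δ, well above its share in the monohormonal cells, which were chosen for little *Ppy*. *Gcg* stood at 6696, 2159 and 1557 CPM in bulk δ and 74021, 83707, 53339, 43968 and 69258 in bulk γ, and *Ins2* at 935, 2297 and 1149 in bulk δ and 11119.8, 15417, 5225, 9241 and 12482 in bulk γ. In the single γ-cells, which were chosen for little *Gcg*, it made 0.144% and 0.178% of UMIs. Of the markers of α-cells 7 of 8 were lower in bulk δ (median logFC -5.42) and of those of β-cells 6 of 9 (median -1.89), and their part in the bulk differences was not tested. Of 17926 tested genes, 2553 were higher in bulk δ (14.2%) and 3715 lower (20.7%), with adjusted p no larger than 0.05 and a logFC of 1 or more in size. Higher genes made 40.7% of these calls, but 55.1% (3746 higher, 3055 lower) under upper-quartile scaling, which moved the median of all genes by 0.2996.

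Of the 224 genes, 218 were tested in bulk, and 136 (62.4%) were higher in bulk δ, 11 (5.05%) lower and 71 not called. Their median logFC was 1.75, against 0.055 over all tested genes. The 621 genes higher than in γ-cells in single cells gave 590 tested in bulk, of which 45.6% were higher and 12.4% lower. The 423 lower genes gave 407 tested, of which 3.69% were higher and 47.2% lower.

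*Hhex* stood at 211, 177 and 235 CPM in the 3 bulk δ libraries and 37.3, 33.1, 43.2, 51.0 and 57.6 in the 5 bulk γ libraries. Each bulk δ library was above all bulk γ libraries (logFC 2.23 ± 0.18, adjusted p = 2.41e-06). *Cd24a* stood at 490.1, 642 and 496 CPM in bulk δ and 64.2, 59.5, 72.0, 64.1 and 84.4 in bulk γ, also with no overlap (logFC 2.98 ± 0.14, adjusted p = 8.24e-08). *Rbp4* differed less, at 859, 1155 and 1470.1 CPM against 549, 534, 567, 547 and 688 (logFC 1.01 ± 0.17, adjusted p = 6.49e-04), and its ranges did not overlap either. *Ly6h* did not separate the bulk samples. It stood at 7.01, 11.2 and 10.7 CPM in bulk δ and 6.18, 7.27, 13.1, 9.38 and 17.5 in bulk γ, with overlapping ranges (logFC -0.14 ± 0.35, adjusted p = 0.757), in contrast with its large difference between single-cell classes.

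*Ptprz1* stood at 91.7, 74.9 and 138 CPM in bulk δ and 9.88, 12.1, 8.25, 6.96 and 22.6 in bulk γ (logFC 3.10 ± 0.35, adjusted p = 3.25e-05). *Gap43* stood at 40.8, 54.9 and 60.8 CPM in bulk δ and 6.08, 5.602, 6.37, 7.01 and 12.97 in bulk γ (logFC 2.79 ± 0.27, adjusted p = 1.05e-05). *Mef2c* stood at 150.2, 163 and 231 CPM in bulk δ and 11.4, 11.8, 8.45, 11.3 and 17.2 in bulk γ (logFC 3.92 ± 0.21, adjusted p = 1.76e-07). The ranges of these 3 genes did not overlap between the groups. *Neurog3* stood at 55.1, 85.1 and 91.6 CPM in bulk δ and 10.9, 14.2, 12.1, 12.8 and 14.4 in bulk γ, again without overlap (logFC 2.59 ± 0.17, adjusted p = 6.73e-07). *Cpb1* stood at 5294, 5364 and 1370.4 CPM in bulk δ and 120.5, 741, 195, 389.8 and 766 in bulk γ, without overlap although the δ libraries were far apart (logFC 3.18 ± 0.62). *Efna5* (4.62 ± 0.20), *Ehf* (3.14 ± 0.14), *Cfap61* (3.01 ± 0.32), *Dpp6* (1.95 ± 0.19), *Fam159b* (1.88 ± 0.17) and *Nnat* (1.78 ± 0.15) were called higher in bulk δ as well, by the logFC given. *Car8* (0.89 ± 0.16) and *Fabp5* (-0.22 ± 0.26) were not called. Genes lower in bulk δ among the 224 included *Nbl1* (-5.36 ± 0.39), a secreted antagonist of bone morphogenetic proteins, *Rnaset2a* (-2.99 ± 0.19), *App* (-1.19 ± 0.15) and *Efnb3* (-1.45 ± 0.14), and they are named here for their direction.

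**Figure D4:**
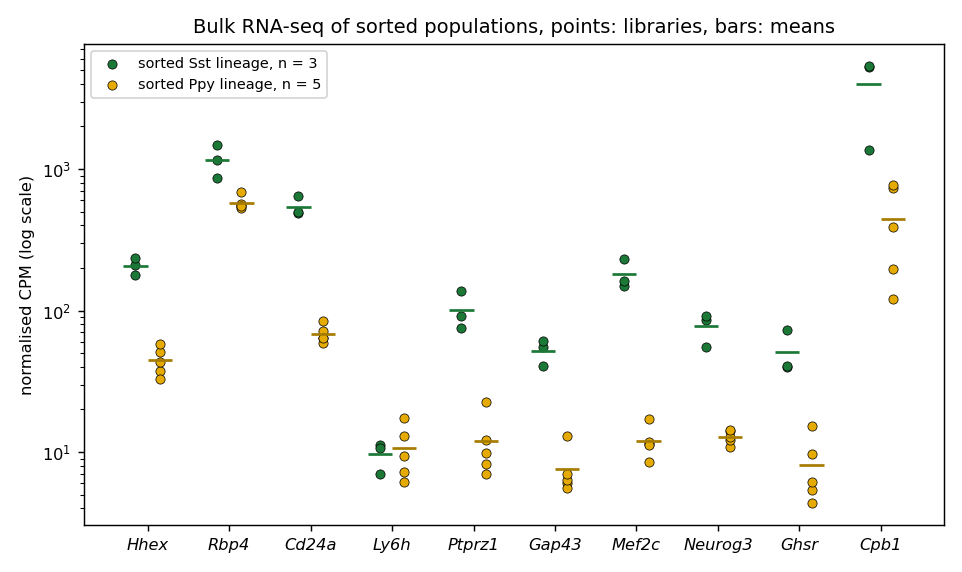
Levels of 10 genes (normalised CPM, log axis) in the 3 bulk δ and 5 bulk γ libraries, one point a library with a bar at the group's mean. The δ and γ points lie apart for *Hhex*, *Cd24a*, *Mef2c* and *Neurog3*, and overlap for *Ly6h*.

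For comparison with each list below, 6.75%, 7.55% and 6.55% of all tested genes were higher against α-, β- and γ-cells. Lower were 5.2%, 7.63% and 4.46%, and in bulk 14.2% were higher and 20.7% lower. Transcription factors of the islet were read as a list of 27 tested genes. Against α-cells 9 were higher and 7 lower, against β-cells 8 and 6, and against γ-cells 8 and 3, with median logFC of 0.33, -0.18 and 0.30 (0.44 for the last with genes at 0 UMIs set to their bounds) where all genes had -0.01. *Hhex*, *Neurog3* and *Sox9*, a factor of ducts and progenitors, were higher against each type. *Irx1*, *Pou3f4* and *Irx2*, factors of α-cells, were lower than in α-cells, the first by at least 16.9-fold and the second by at least 5.01-fold, as no UMI of either was found in δ-cells. *Pdx1*, which acts in pancreas formation and in β-cells, stood at 58.1 and 34.4 CPM in δ-cells, 2.08 and 0.346 in α-cells, 101 and 69.0 in β-cells and 10.3 and 7.09 in γ-cells. It was thus higher than in α- and γ-cells, and its lower value against β-cells (-0.85 ± 0.21) reversed in plain CPM. *Nkx6-1*, at 0 and 9.37 CPM, was lower than in β-cells (-5.92 ± 0.47) and γ-cells (-3.52 ± 0.55). *Mlxipl*, which encodes the glucose-responsive factor ChREBP, stood at 97.7 and 93.7 CPM against 7.30 and 7.27 in α-cells and 19.4 and 21.0 in γ-cells, close to the 134 and 161 of β-cells. *Isl1*, at 402 and 309 CPM, was higher than in β-cells (1.65 ± 0.17), and *Etv1*, at 453 and 309 CPM, was like α-cells and far above β-cells (4.03 ± 0.20). In bulk 7 of 29 list genes were higher and 15 lower (median -1.05, against 0.055 over all genes), among them *Insm1* (-2.54 ± 0.17), whose single-cell difference from γ-cells was 1.91 ± 0.20.

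Receptors for hormones and transmitters were mostly thin at this depth, with 19 of 39 list genes tested. Against α-, β- and γ-cells 7, 6 and 5 were higher and 6, 5 and 5 lower, with median logFC of 0.57, 0.22 and -0.03, or 0.57, 0.40 and 0.28 with genes at 0 UMIs set to their bounds. In bulk 6 of 34 were higher and 19 lower (median -1.32). *Ghsr*, the ghrelin receptor, stood at 6.604 and 6.25 CPM, was higher than in β-cells (9 UMIs against 1, a ratio of 35.8-fold, 4.96 to 1569), and was not found in α- or γ-cells, which made it at least 12.4-fold and 20.6-fold higher. In bulk *Ghsr* stood at 39.7, 40.7 and 73.2 CPM against 5.43, 4.36, 6.18, 9.62 and 15.2 in γ libraries (logFC 2.66 ± 0.38). *Ramp1*, which completes the receptor for calcitonin gene-related peptide, stood at 129 and 117 CPM and was higher by 3.39 ± 0.26, 2.57 ± 0.25 and 3.00 ± 0.24. *P2ry1*, a receptor for ADP, stood at 27.7 and 89.1 CPM in δ-cells, 25.3 and 41.95 in β-cells, and below 1 in α- and γ-cells. *Ffar4*, a receptor for long-chain fatty acids, was higher than in α-cells (1.09 ± 0.32) and β-cells (2.26 ± 0.37), whereas *Ffar1*, a second receptor of such acids, was lower than in all 3 types, with 1 UMI in δ-cells against 117, 551 and 170 in α-, β- and γ-cells. *Gpr119* gave no UMI in δ-cells and was lower by at least 19.0-fold, 3.60-fold and 8.54-fold. *Gria3*, a glutamate receptor subunit, stood at 2.64 and 6.25 CPM against 42.7 and 34.3 in α-cells and 36.0 and 35.2 in γ-cells. *Adra2a*, a receptor of adrenaline, was higher than in γ-cells among single cells (13 UMIs against 3, a ratio of 29.8-fold, 8.18 to 163) and lower in bulk (-2.74 ± 0.30). *Igf1r*, the receptor of insulin-like growth factor, likewise differed by 1.18 ± 0.19 among single cells and -2.49 ± 0.16 in bulk.

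Genes of glucose sensing and electrical excitability gave 24 tested genes, with 5, 4 and 7 higher and 2, 5 and 2 lower against α-, β- and γ-cells and median logFC of 0.06, -0.11 and 0.53 (-0.23 and 0.49 for the last pair with genes at 0 UMIs set to their bounds). In bulk 6 of 30 were higher and 8 lower (median -0.54), where 14.2% of all tested genes were higher and 20.7% lower. *Cacna1h*, a T-type calcium channel, stood at 18.5 and 10.9 CPM, and no UMI was found in α- or β-cells, so it was at least 28.9-fold and 27.8-fold higher. *Scn9a*, a neuronal sodium channel, stood at 99.1 and 26.6 CPM, with a large gap between the experiments, and was higher by 2.15 ± 0.43, 2.06 ± 0.44 and 1.35 ± 0.38. The potassium channel subunits of the ATP-sensitive channel did not pass the test against any of the 3 types: *Abcc8* stood at 218 and 159 CPM in δ-cells and 136 and 146 in β-cells, and *Kcnj11* at 38.3 and 49.99 and 32.6 and 21.7. *Slc2a2*, the glucose transporter of β-cells, stood at 2.64 and 3.12 CPM against 393 and 287 in β-cells (-6.88 ± 0.34). *Kcnk16*, a potassium channel of islets, was lower than in γ-cells (-0.997 ± 0.16).

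In the list of prohormone processing, 3, 1 and 0 of 13 tested genes were higher and 5, 6 and 2 lower, with median logFC of -0.03, -0.53 and -0.26, and in bulk 1 of 14 was higher and 7 lower (median -0.68). *Pcsk1*, which cleaves proinsulin, stood at 13.2 and 14.1 CPM against 1.04 and 1.04 in α-cells and 167 and 176 in β-cells. *Chga* (chromogranin A), at 828 and 784 CPM, was lower than in all 3 types (-1.51 ± 0.19, -2.43 ± 0.19 and -1.26 ± 0.18). *Chgb*, at 1437 and 784 CPM, was higher than in α- and β-cells (1.99 ± 0.18 and 0.76 ± 0.17). *Chga* and *Chgb* thus differed in opposite directions. Of the other peptide genes 7 were tested, with 5, 2 and 5 higher and 0, 3 and 1 lower (median logFC 3.98, 0.02 and 2.99), and in bulk 2 of 14 were higher and 4 lower (median -1.51). *Iapp* stood at 27924 and 21920.0 CPM against 1949 and 1238 in α-cells, 108710.0 and 83922 in β-cells and 3223 and 2983 in γ-cells, and *Pyy* at 30532 and 21650.0 against 7682 and 6279, 781 and 666 and 312210.0 and 334490.0. δ-cells therefore lay between the other types for both. *Dlk1*, a transmembrane protein of the Delta-like family, was at 40.9 and 12.5 CPM and higher than in all 3 types, with 39 UMIs against 1 in γ-cells (a ratio of 268-fold, 45.4 to 10854). *Ins1*, at 2265 and 901 CPM, was higher than in γ-cells (2.31 ± 0.26), but its plain level of 2974 and 1317 CPM was near the 2007 and 4703 of non-endocrine YFP- cells, and in bulk it was lower (-3.64 ± 0.54). *Mafa*, a factor of mature β-cells, gave 5 UMIs in δ-cells and none in γ-cells (at least 11.5-fold higher), and its plain level was 5.20 and 4.57 CPM in δ-cells and 4.53 and 4.01 in non-endocrine cells. In bulk it was lower (-5.46 ± 1.05).

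Of 23 tested adhesion molecules and synaptic organizers, 12, 12 and 10 were higher and 2, 5 and 3 lower against α-, β- and γ-cells, with medians of 1.04, 0.91 and 0.73. In bulk 12 of 32 were higher and 5 lower (median 0.61). *Ptprz1*, *Spock3*, *Efna5*, *Cdh2*, *Gap43* and *Gpm6a* were higher against each type. *Spock3*, a proteoglycan of the extracellular matrix, stood at 19.8 and 39.1 CPM with no UMI in any of the other 3 types, and was at least 55.0-fold, 53.0-fold and 91.6-fold higher. *Cdh2* (N-cadherin) stood at 158 and 177 CPM with 1.83 ± 0.16, 1.27 ± 0.17 and 0.97 ± 0.15, but did not pass in bulk (-0.12 ± 0.15). *Gpm6a*, a membrane glycoprotein of neurons, was at 19.8 and 17.2 CPM. *Robo2*, a receptor for Slit guidance cues, and *Negr1* were lower than in α- and γ-cells (logFC of *Robo2* -1.16 ± 0.19 and -0.82 ± 0.19). *Spock2*, by contrast with *Spock3*, stood at 42.3 and 45.3 CPM against 141 and 188 in β-cells (-1.88 ± 0.19).

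For vesicle exocytosis, 28 tested genes gave 3, 4 and 3 higher and 4, 8 and 3 lower, with median logFC of 0.14, -0.32 and -0.09, and in bulk 2 of 28 were higher and 12 lower (median -0.63). *Syt1*, the fast calcium sensor of synaptic release, stood at 38.3 and 26.6 CPM against 4.52 and 3.81 in α-cells, 1.66 and 2.71 in β-cells and 1.01 and 0.430 in γ-cells. In bulk *Syt1* differed by 2.37 ± 0.21. *Syt5* and *Rab3b*, a vesicle GTPase, were also higher than in all 3 types. *Cadps*, which primes dense-core vesicles, stood at 1.32 and 4.69 CPM against 62.7 and 50.1 in β-cells and 87.6 and 77.8 in γ-cells, and its logFC against α-, β- and γ-cells was -4.94 ± 0.39, -4.32 ± 0.42 and -4.82 ± 0.39. In bulk *Cadps* was lower too (-3.97 ± 0.17). *Slc30a8*, the zinc transporter of insulin granules, stood at 10.6 and 20.3 CPM in δ-cells and 20.6 and 21.0 in γ-cells, both far below α-cells (639.7 and 486) and β-cells (621 and 486). In the retinoid list, *Rbp4* was higher and *Ttr*, the transthyretin that carries it in plasma, lower against every type. *Ttr* stood at 211 and 456 CPM against 33975 and 22841, 2127 and 1363 and 6028 and 5332.

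Immediate early genes, which respond to stimulation and to handling of cells, were lower than in γ-cells for 7 of 14 and than in α-cells for 4, and higher than in β-cells for 3, with median logFC of -0.56 against α-cells, 0.33 against β-cells and -1.15 against γ-cells. *Fos* stood at 103 and 127 CPM against 246 and 172 in α-cells, 106 and 112 in β-cells and 298 and 204 in γ-cells. In bulk the list was split, with 8 of 16 higher and 5 lower (median 1.26), and *Fos* was higher in bulk δ (1.70 ± 0.33).

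**Figure D5:**
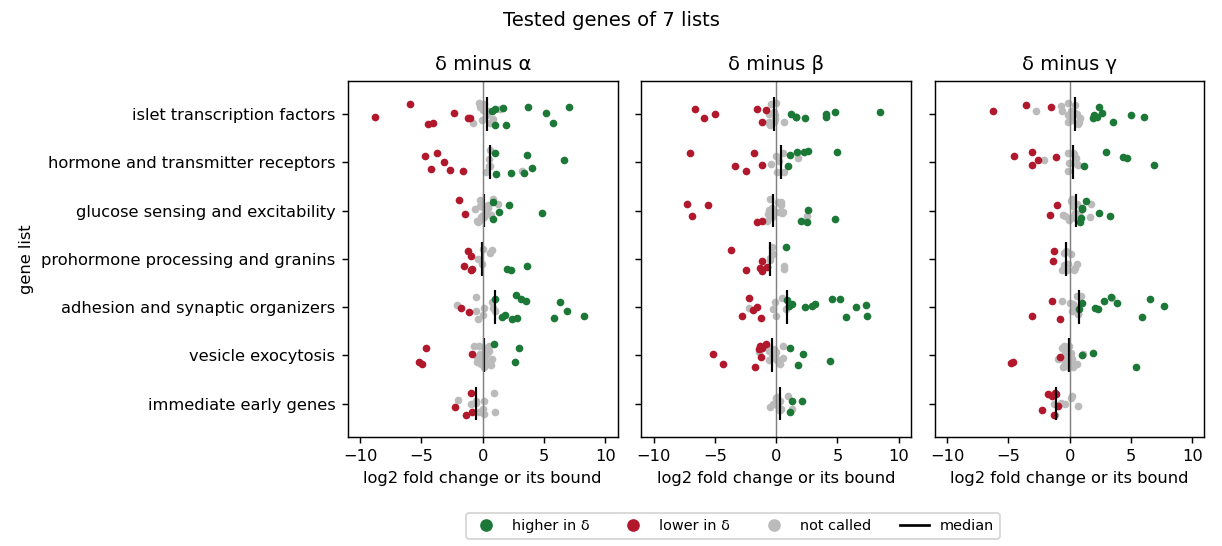
logFC (log2, or its bound for genes at 0 UMIs) of the genes of 7 lists in δ-cells against α-, β- and γ-cells on the normalised scale, green for higher, red for lower and grey for not called, with a black line at the list's median. Adhesion genes lie mostly to the right, at medians of 1.04, 0.91 and 0.73.

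The genes with the largest differences in single comparisons included many that mark the other type. Lower than in α-cells were *Ttr*, *Dapl1* (1 UMI in δ-cells against 457), *Lpl*, the lipoprotein lipase, at 2.64 and 7.81 CPM against 298 and 457, *Ociad2* (2 UMIs against 642), and the thymosin genes *Tmsb15b2* and *Tmsb15l*, close copies of each other whose reads may be split between them. Higher than in α-cells were *Neurog3*, *Ly6h*, *Gap43*, *Fam159b*, *Ptprz1*, *Mef2c*, *Sez6l* at 132 and 122 CPM (6.64 ± 0.45) and *Spock1* at 59.4 and 89.1 CPM (6.32 ± 0.45). Lower than in β-cells were *Tmem215* and *Sytl4*, which encodes granuphilin of insulin granules, by at least 72.0-fold and 51.9-fold. *G6pc2*, the islet glucose-6-phosphatase (-7.31 ± 0.29), *Prss53* (1 UMI in δ-cells against 1901), *Cox6a2* (1 against 1067), *Ins1* and *Dapl1* were lower as well. So was *Ucn3*, a peptide of mature β-cells known to act on δ-cells, with 3 UMIs against 2262 and a ratio of 189.6-fold (64.8 to 920.0). Higher than in β-cells was *Tspan12* (97 UMIs against 3, a ratio of 129-fold, 42.7 to 634), with *Hhex*, *Ly6h*, *Gap43*, *Ptprz1*, *Ehf* and *Cd24a*.

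Lower than in γ-cells were YFP and rtTA, which the sort and the transgene set, and *Tmsb15b2*, *Cadps*, *Ttr* and *Ugt2b34* (-4.44 ± 0.42). Higher than in γ-cells were *Sim1*, a bHLH-PAS factor, at 47.5 and 40.6 CPM against 0.202 and 0.430 (a ratio of 142-fold, 46.4 to 707), and *Cfap61* (6.93 ± 0.43), *Fam159b*, *Ly6h*, *Cd24a* and *Ptprz1*. *Cpb1* and *Pnliprp1* also stood in this group, but neither was called without the 9 members.

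Between δ-cells and the Ppy+Sst+ cells of the same libraries no gene was called higher (0%) or lower (0%) by edgeR, while 437 of 9481 had an unadjusted p under 0.05, and DESeq2 called 0. The median SE of a logFC was 0.534 here, against 0.364, 0.373 and 0.352 for α-, β- and γ-cells, so only larger differences could have passed. *Hhex* stood at 147 and 170.3 CPM in δ-cells and 137 and 125 in Ppy+Sst+ cells (logFC 0.25 ± 0.29). *Cd24a* stood at 543 and 578 and 520.3 and 557 (0.057 ± 0.20), and *Ly6h* at 280.0 and 241 and 193 and 268 (0.20 ± 0.23). *Pyy* made 4.01% and 3.16% of UMIs in δ-cells and 5.31% and 3.17% in Ppy+Sst+ cells, while *Ppy*, which the rule used, made 1.88% and 1.86% in the latter.

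Members differed between the experiments. Of 2516 genes compared without the 9 members, 210 (8.35%) differed more than 2-fold between experiments, 36 higher in experiment 1 and 174 in experiment 2, and the same share was 5.03% in α-cells and 7.31% in β-cells. The sums differed in depth, with 576617 and 438022 UMIs of δ-cells (before the 9 were left out), 2859630 and 2686685 of α-cells and 10326214 and 1272473 of β-cells, so counting error weighed most on δ-cells and the shares cannot be ranked. *Folr1*, a folate receptor, stood at 159 and 0 plain CPM, *Pdyn* (prodynorphin) at 101 and 7.36, *Npy* at 99.7 and 17.2 and *Dlk1* at 54.2 and 19.6 in experiments 1 and 2. All 4 were higher in experiment 1, and *Folr1* was so in α-cells (17.8 and 1.12) and β-cells (16.9 and 0.786) too. *S100a8* and *S100a9*, genes of neutrophils, went the other way, at 1.75 and 201 and 0 and 137, and *S100a9* did so in α-cells too, at 0.350 and 114. *Xist*, the noncoding RNA of the inactive X chromosome, stood at 1072 and 3429, and the Y-linked *Ddx3y* at 54.2 and 0, with the same pattern in α-cells (1187 and 2637 and 27.6 and 0). The part of what these genes follow, the sex of the pooled mice, in the other differences between experiments was not tested.

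Among single cells of 1 experiment, spread was measured as the variance over the mean of counts thinned to 1000 UMIs. The rule genes were left out of the order. Without the 9 members spread was highest for *Pyy* (12.9, the lower of both experiments), *Malat1* (11.8) and *Iapp* (7.03), where genes had medians of 1.01 and 1.02. *Resp18* (2.38), *Rbp4* (1.99), *Chga* (1.77) and *Pam* (1.52), genes of the secretory pathway or secreted products, followed. With the 9 members included, the 10 genes of highest spread were all acinar genes, led by *Clps* (80.1) and *Ctrb1* (77.4).

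The promoters of the 224 genes were searched for TAATTA, a core sequence of homeodomain factors that reads the same on both strands, and for the CRE. A window was held for 157 of them. TAATTA was found in 6 (3.82%), against 5.65% of all 27025 genes and 2.92% of the 7426 tested genes with a window. The CRE was found in 2 (1.27%), *Kctd8* and *Retreg1*, against 3.46% of the tested genes. One of the 6, *Mef2c* (chromosome 13, 83504017 to 83667079), is shown because it is also among the named genes. The window shown in part lies before its start site at 83523656, 1 of several in RefSeq, and holds the motif, in capitals, beginning 102 bases before that start.
Mef2c promoter, chr13:83523542-83523571, plus strand: ttcaaaaacttgTAATTAatttattactaa

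Markers of other cell types were summed in δ-cells. Acinar markers summed to 4150.1 and 8549.8 plain CPM in experiments 1 and 2, led by *Clps* and *Ctrb1*. They were higher than in β- and γ-cells for 8 of 8 genes and than in α-cells for 3, and without the 9 members for none. In bulk δ all 8 were higher as well, and their part in other bulk differences was not tested. B-lineage markers summed to 430.1 and 7625, most of it *Igkc*, with *Ms4a1* at 0. Macrophage markers summed to 137 and 310.5, ductal markers to 123 and 258, endothelial markers to 12.1 and 86.8, stromal markers to 3.47 and 158 and Schwann cell markers to 33.0 and 54.8, the last with *Sox10* and *Cdh19* at 0. Cycling markers summed to 6.94 and 16.0. Of the markers of α-cells, 8 of 8 were lower than in α-cells, and of those of β-cells 9 of 9 were lower than in β-cells. Of 4 γ-cell markers, 3 were lower than in γ-cells, while 3 were higher than in α-cells and 4 higher than in β-cells. Among those higher, *Folr1* stood above α- and β-cells in experiment 1 only. Its plain level was 158 and 0 CPM in δ-cells, 17.8 and 1.12 in α-cells and 16.9 and 0.786 in β-cells.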

How the data were processed

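Single-cell values were deposited as UMI counts per gene and cell, made by the authors with Cell Ranger on mm10 (submitters' processing notes also name Seurat and R 3.6.1). In the deposited matrices every cell held 1000 UMIs or more, of which no more than 7% were mitochondrial. Bulk values were deposited as read counts per gene, for which the notes name STAR 2.7.2b, HTSeq 0.9.1, DESeq2 1.28.1 and GRCm38.p6. The bulk table held 45808 genes, and 6 of its columns of other samples were not used.

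The members and gene lists were chosen with earlier results of these data known. UMIs were summed per class and experiment and tested with edgeR 4.0.16 (R 4.3.3; quasi-likelihood, TMM, filterByExpr, Benjamini-Hochberg) with the experiment as a block and the 7 rule genes left out of the tests. The YFP+ and YFP- libraries of 1 experiment came from the same mice, and deviations of same-numbered sums correlated at 0.164 to 0.344 over 9487 genes. Bulk groups were compared in edgeR without a block, for genes with a mean of at least 5 counts per library. DESeq2 1.42.0 was an alternative, and the tests were checked on simulated data. Whether each library stands for separate animals is not stated for bulk, so p-values measure the spread between these libraries. Doublets were sought by averaging pairs of cells of 1 library, and in each experiment 2% of cells were marked, those with most simulated pairs among 50 neighbours. None was a member, not even those with 33.5% to 46.3% of UMIs in acinar genes or 35.0% in immunoglobulin genes. The marking therefore cannot tell whether a member was a doublet. Marked cells were left out in an alternative only.

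Named genes were the 20 with the largest minimum logFC among genes called higher against α-, β- and γ-cells, the 8 called genes with the largest change in each direction of each comparison (both at 50 plain CPM or more in the higher class and without overlap over the experiments), the 10 most abundant δ-cell genes after the rule genes, the 10 of highest spread among thinned cells, and examples from the lists. Some list genes and *Nbl1*, *Rnaset2a*, *App*, *Efnb3*, *Folr1*, *S100a8*, *S100a9*, *Xist* and *Ddx3y* were chosen after their values were seen. Predicted gene models (Gm and Rik) were counted but not named, and some genes that these rules pick are not reported here. Python 3.11.15, pandas 2.3.3, scipy 1.17.1 and matplotlib 3.10.9 were used.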

Additional observations from a re-analysis of the deposited data

Results flagged for a closer look

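In the 29 groups of 4 to 10 bulk libraries examined, 3 values lay far from the rest of their group, in 2 libraries, where chance picks out about 1 in 20 groups. Bulk γ replicate 5 had 12.97 CPM of *Gap43* and 688 CPM of *Rbp4*, the highest of the 5 γ libraries for both. Bulk γ replicate 4 stood apart for *Tspan8*, a tetraspanin, at 510.5 CPM.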

How the results depend on the processing

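With cells thinned to 1000 UMIs, 356, 259 and 273 genes were called against α-, β- and γ-cells, with 46 genes higher against all 3, and only 2194 genes were then tested. With no replicate block 662 were called against γ-cells and 137 were higher against all 3, and with libraries as block 112 (100 higher, 12 lower) and 72. Against Ppy+Sst+ cells 36 genes were called with no filter on low counts (35 higher), 1 with the other hormone thresholds lowered and 1 with doublets left out. The number of members lay between 192 (other hormone thresholds lowered) and 276.

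Of the values of named genes under the alternatives, 1288 kept direction and side of the threshold, 44 were no longer called, 2 became called and 26 changed sign. With libraries as block the logFC against γ-cells was -2.93 for *Cpb1*, 4.04 for YFP and -0.75 for *Pnliprp2*. That fit takes the Ppy+Sst+ cells of both fractions as alike, which they were not, so no conclusion was drawn from its values. With the *Sst* threshold raised, the other hormone thresholds lowered and the 9 members left out, in this order, *Pnlip* had -1.59, -1.97 and -1.65 against α-cells and -1.70, -2.06 and -1.75 against β-cells, *Cpb1* -2.96, -3.35 and -3.11 and -2.95, -3.33 and -3.10, and *Pnliprp2* -2.20, -1.85 and -2.19 and -2.13, -1.78 and -2.12. All of these were without a call. With 1 experiment left out, 1 sum per class remained and gave logFC only, without a test, in the same direction for all 82 comparisons of named genes in each case.

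In bulk, 6268 genes were called, and 5482 to 6255 with 1 library left out, 6801 under upper-quartile scaling, 7590 of 31210 without a filter on low counts (3787 higher, 3803 lower, with the median of all genes moved by 0.399), and 8730 at a logFC of 0.5. *Ly6h* changed sign without a call under upper-quartile scaling (0.14), with a replicate block (0.17), and without bulk δ replicate 1 (0.026) or bulk γ replicate 5 (0.089, with 1 library left out the range was -0.29 to 0.089), as did *Fabp5* under upper-quartile scaling (0.084). Deviations of same-numbered bulk libraries correlated at -0.0952, 0.0678 and -0.274 over 17926 genes. With so few libraries these values cannot tell whether the numbers mark a shared batch, and no pairing was assumed. The fit with the replicate block called 5373 genes. With 2 sums per class, and shallow δ-cells, genes at a few UMIs are the least certain. The causes of these changes were not tested.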
